A study of Mus musculus with 36 samples.

Results

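Wnt ligands, their receptors and the proteins that tune them were followed in mouse cortical neurons stimulated with BDNF or depolarized with KCl. The genes were chosen by name alone: every gene with a value above 0 whose symbol is Wnt, Fzd, Dkk, Sfrp, Rspo or Dvl followed by a digit, together with 16 named receptors, scaffolds, factors and inhibitors from Lrp5 to Nkd2. This gave 61 of the 26709 genes in the RNA table, including Rspo4os, an antisense gene whose name fits the pattern. The primary cultures came from the cortices of CD-1 mouse embryos at embryonic day 15, with embryos pooled, and were grown for 7 days. All groups, controls included, spent a first 2 h in 100 µM AP-5, which blocks NMDA receptors, and 1 µM TTX, which blocks sodium channels. BDNF at 10 ng/ml, a neurotrophin that signals through the TrkB receptor, or KCl at 55 mM was then given for 1, 6 or 10 h, and control cultures remained in AP-5 and TTX for 3, 8 or 12 h in total. RNA-seq and ATAC-seq (a transposase assay of open chromatin) were each made on 18 libraries, with 2 in every one of the 9 groups. The study calls the libraries of a group biological replicates, and the sources used here do not say whether they came from separate dissociations, so the p-values measure only the spread between these libraries.

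Wnt proteins are secreted lipid-modified ligands that bind Frizzled receptors. In the beta-catenin branch they also engage Lrp5 or Lrp6, Dishevelled proteins are recruited, and the complex of Axin, Apc and Gsk3b that marks beta-catenin (Ctnnb1) for destruction is held back, so that beta-catenin reaches Tcf/Lef factors on DNA. R-spondins raise Frizzled levels at the membrane by drawing away the ubiquitin ligases Znrf3 and Rnf43, whereas Sfrp proteins and Wif1 bind Wnts, Dkk1, Dkk2 and Dkk4 act on Lrp5 and Lrp6, and Axin2, Nkd1 and Nkd2 feed back on the pathway. In the cortex these genes are best known for patterning, progenitor division, axon and dendrite growth and synapse assembly.

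The RNA libraries held 8.51 to 36.7 M reads counted to genes (M for mega, median 11.6 M), with a control 1 h library the deepest, and the ATAC-seq libraries 1.24 to 6.24 M reads in peaks. Markers listed for neurons summed to 49344 to 55008 normalised read counts in the controls, and those of astrocytes and radial glia to 19756 to 22487, of dividing cells to 3945 to 6629, of the oligodendrocyte lineage to 5838 to 6313 and of meningeal fibroblasts to 3652 to 4419. RNA of glia, dividing cells and fibroblasts thus stood beside that of the labelled neurons, and in such bulk samples fewer cells of a type and less RNA per cell cannot be told apart. The pair of libraries at KCl 6 h differed from each other more than those of any other group (chi-square per degree of freedom 39.6, against 2.44 to 10.4 in the others).

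In silenced control cultures the levels of the 61 genes, as mean normalised reads per kb of exon, ran from 1935 for Ctnnb1 down to 0.0729 for Rspo4 (the plot of control levels by role). Beta-catenin, the effector of the pathway, stood highest at 1935 ± 87.4 reads per kb (SD, n = 6), followed by the soluble antagonist Sfrp1 at 926 ± 77.1. Apc (647 ± 43.2) and the kinase Gsk3b (519 ± 17.5) of the destruction complex came next, while its scaffolds Axin1 and Axin2 lay lower, at 137 and 68.6. Among ligands Wnt7a (315 ± 25.8) and Wnt7b (261 ± 12.0) led, and their control ranges, 273 to 346 and 246 to 278, overlapped. Wnt5a, a ligand mostly linked to signalling outside beta-catenin, followed at 81.7 ± 9.42. Of the Frizzled receptors Fzd1 was highest at 233 ± 14.8 and did not overlap Fzd2 (169 ± 19.6), whereas Fzd2 and Fzd9 (144 ± 12.6) overlapped. The highest members of the other roles were Dvl1, Dkk3, Lrp6, Rspo2, Nkd2, Znrf3 and Tcf7l1.

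**Figure D1:**
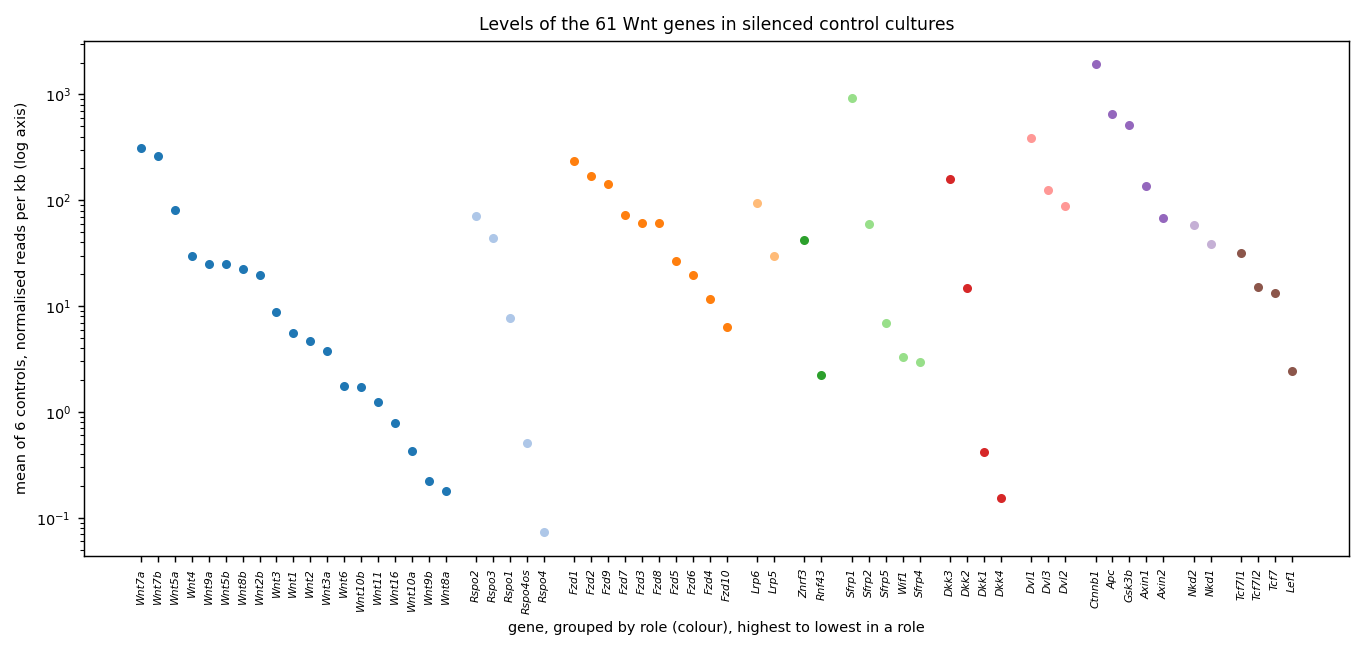
Mean level of each of the 61 genes over the 6 control RNA libraries, in normalised reads per kb of exon on a log axis, grouped by role. Ctnnb1 (1935) and Sfrp1 (926) stand highest, and 8 of the 19 ligands fell below the minimum used for testing.

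Of the 61 genes, 49 had a mean normalised read count of at least 10 over all libraries and were tested. The other 12 were Dkk1, Dkk4, Rspo4, Rspo4os and 8 ligands (Wnt3a, Wnt6, Wnt8a, Wnt9b, Wnt10a, Wnt10b, Wnt11 and Wnt16). A gene was called at an adjusted p below 0.1 (limma, Benjamini-Hochberg over all 16209 genes tested). Differences are on the log2(normalised read count + 1) scale, each with its standard error. The contrasts of BDNF and of KCl share the same 6 control libraries, so their values are set side by side without any measure of likeness.

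Among the controls, time in AP-5 and TTX gave no calls. Controls at 6 h and at 10 h, each against controls at 1 h, gave 0 called members, where 0% of all genes passed. With limma 0 members had an unadjusted p below 0.05 in either comparison, and edgeR and DESeq2 on the recovered reads also called 0. With 2 libraries a side, all of them silenced, this does not show that time in the blockers has no effect. Stimulated cultures are listed with 2 h in the blockers and controls with 3, 8 or 12 h. In the contrasts with controls, the stimulus and the time in the blockers therefore cannot be told apart.

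With BDNF few of the genes moved at 1 h and more fell later. At 1 h, 6 of the 49 rose and 5 fell, or 12.2% and 10.2%, against 21.3% and 19% of all genes. At 6 h, 3 rose and 20 fell (6.12% and 40.8%, against 22.1% and 21.1% of all genes). At 10 h, 2 rose and 21 fell (4.08% and 42.9%, against 21.1% and 19.5%). The median difference over the 49 ran from -0.09 (1 h) over -0.29 (6 h) to -0.33 (10 h), where the median over all genes lay between -0.01 and 0.00. At both late times 18 genes (36.7%, against 15.1% of all genes) were lower, among them Ctnnb1, Gsk3b, Apc, Axin2, Lrp6, Sfrp1 and 4 Frizzled receptors, and Wif1 alone was higher at both, which 17.2% of all genes were. Without library A of the 1 h group 6 members were called, and without library B 7. Without library A of the 6 h group 12 were called. Without library A of the 10 h group 15 were called, and without library B 12. Against controls of the same time only, the 1 h count was 7.

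With KCl more genes moved and the directions were mixed. At 1 h, 14 rose and 9 fell (28.6% and 18.4%, against 26.5% and 28.2% of all genes). At 6 h, 15 rose and 17 fell (30.6% and 34.7%, against 33.4% and 33.1%). At 10 h, 10 rose and 18 fell (20.4% and 36.7%, against 29% and 28.2%). The median difference was 0.01, -0.18 and -0.15 in time order, against 0.00, 0.01 and 0.01 over all genes. At both late times 10 genes were higher and 15 lower (20.4% and 30.6%, against 24.2% and 23.3% of all genes). In all 4 late contrasts 7 genes were lower (14.3%, against 6.16% of all genes), namely Apc, Axin2, Fzd8, Nkd2, Wnt4, Wnt5b and Wnt9a. Of these, Wnt4 alone kept its call in all 4 contrasts whichever library was left out. Apc lost its call at BDNF 10 h without library B (adjusted p = 0.39), and at KCl 6 h without library B (0.31). Fzd8 lost its call at BDNF 6 h without library B (adjusted p = 0.12), at BDNF 10 h without library B (0.16), and at KCl 6 h without library B (0.12).

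Tested directly against each other at the same time, the stimuli differed in 19 to 25 of the 49 genes, with the lower level more often under BDNF. At 1 h, 6 were higher and 13 lower with BDNF than with KCl, against 24.6% and 18.2% of all genes. At 6 h the counts were 6 and 19, against 29.6% and 27.8%. At 10 h they were again 6 and 19, against 23.1% and 21.8%. Without library A of BDNF 1 h, 10 members were called at 1 h. Between 1 h and 6 h of the same stimulus, 19 members differed with BDNF (33.6% of all genes did) and 26 with KCl (59.6%). In the contrasts with controls, Fzd6, Fzd10, Lef1, Sfrp2 and Wnt8b were never called, and the share of all genes never called was not taken. For Fzd6, Fzd10 and Wnt8b, library B held more than library A in every 1 h and 6 h group. At control 1 h, Fzd6 held 53.2 and 122 and Wnt8b 36.1 and 117. The model did not pair the letters, and whether these genes would be called with them paired is not given here.

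**Figure D2:**
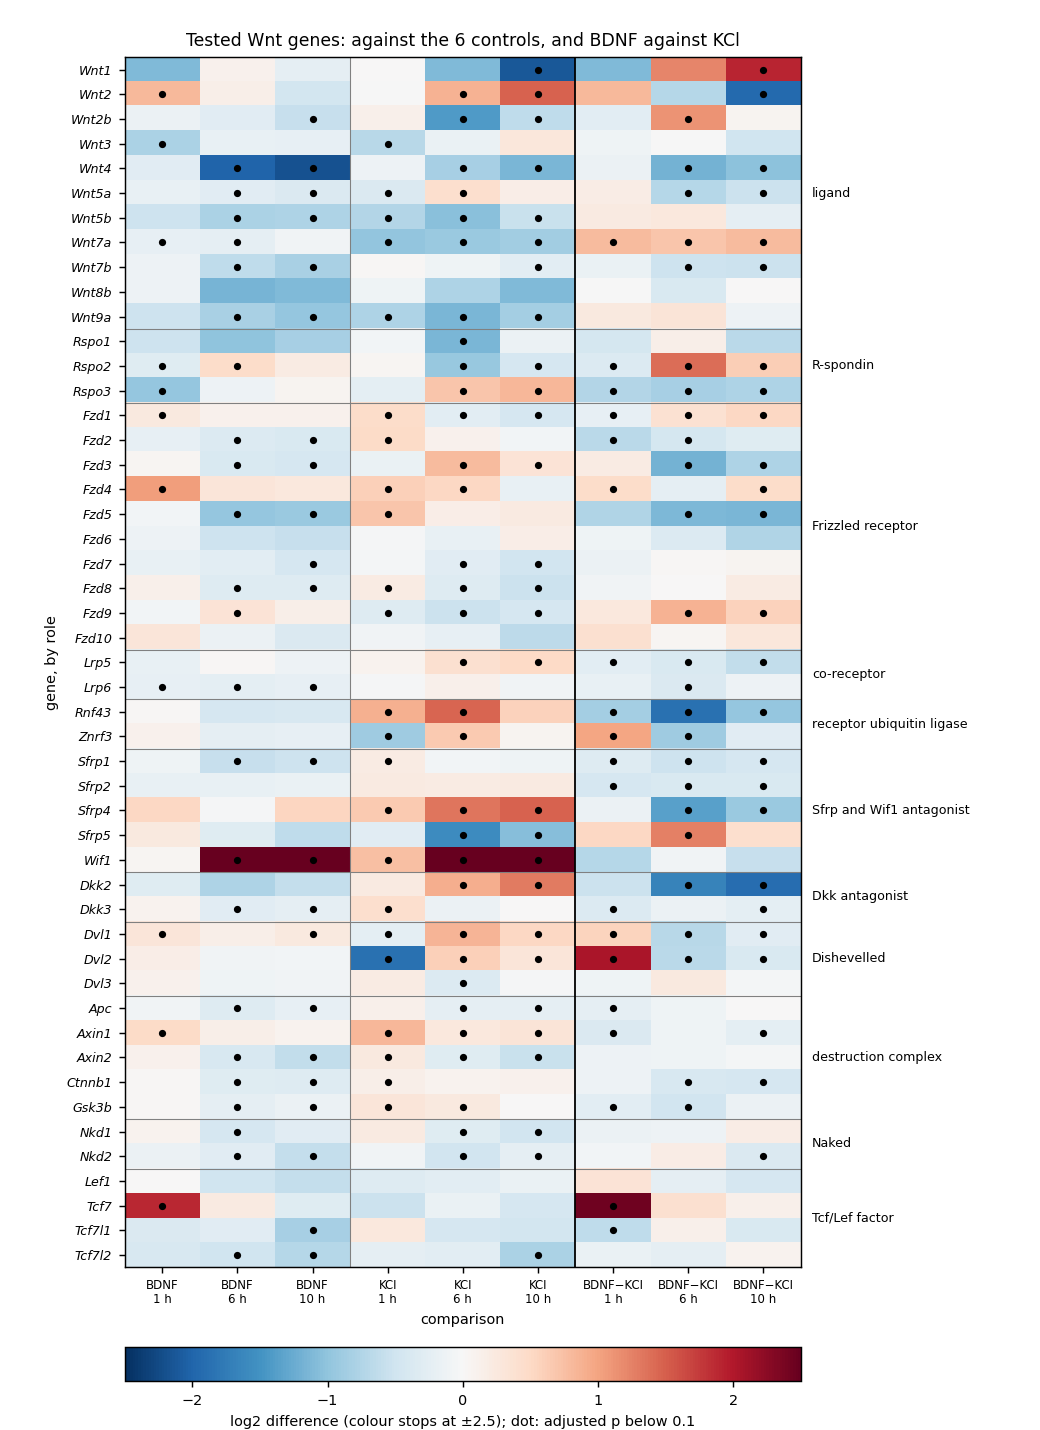
Log2 difference of each of the 49 tested genes (rows, by role) in the 6 contrasts with controls and the 3 direct contrasts (columns); a dot marks an adjusted p below 0.1. The BDNF 6 h and 10 h columns are mostly blue, with 20 and 21 genes lower, while the KCl columns hold both colours, and Wif1 has the largest rises late with either stimulus.

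Of the 11 ligands tested, BDNF raised 1 and lowered 2 at 1 h (9.09% and 18.2%) and raised 0 and lowered 6 at each late time (0% and 54.5%), against shares of all genes between 19% and 22.1%. KCl raised 0 and lowered 5 at 1 h (0% and 45.5%, against 26.5% and 28.2%), then 2 and 5 (18.2% and 45.5%, against 33.4% and 33.1%), then 1 and 7 (9.09% and 63.6%, against 29% and 28.2%). With 11 ligands, the shares lowered at BDNF 1 h and KCl 6 h were thus near those of all genes, and the other late shares lowered were above them. Some of the late calls, among them those of Wnt9a, Wnt5b and Wnt5a, did not hold without single libraries, as given below. Wnt4 (chr4:137277489-137299726, mm10, plus strand), a ligand known from kidney and gonad development, fell most with BDNF. It lay at 109.6 to 142 normalised read counts in the controls (median 125). After BDNF it held 92.8 and 111 at 1 h, 24.3 and 37.5 by 6 h and 31.6 and 22.7 by 10 h. KCl left it at 111 and 114 at 1 h and brought it down to 69.8 and 69.5 by 6 h and 51.3 and 59.9 by 10 h. The late libraries of either stimulus all lay below every control, and those of BDNF below those of KCl. The late differences were -2.00 ± 0.17 (adjusted p = 5.2e-09) and -2.17 ± 0.17 (3.2e-09) with BDNF. With KCl they were -0.82 ± 0.17 (adjusted p = 2.1e-04) and -1.15 ± 0.17 (7.6e-06). Directly compared, the level with BDNF was lower, with a difference of -1.18 ± 0.21 at 6 h and -1.02 ± 0.21 at 10 h (adjusted p = 5.7e-05 and 4.5e-04).

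The pair of abundant ligands split by stimulus. Wnt7a (chr6:91363981-91411363, minus strand), known for synapse assembly and for signalling to brain blood vessels, lay at 865 to 1096 in the controls (median 988). It fell at once with KCl, to 516 and 491 at 1 h, 541 and 509 by 6 h and 556 and 536 by 10 h, so that all 6 libraries lay well below the controls. The differences were -0.98 ± 0.08, -0.92 ± 0.08 and -0.87 ± 0.08, with adjusted p at most 6.6e-09. With BDNF it held 885 and 853 at 1 h and 867 and 829.8 at 6 h, called falls of -0.20 and -0.23 that overlapped the controls, and 969.8 and 915 at 10 h (-0.08 ± 0.08, adjusted p = 0.45). Wnt7b (chr15:85535437-85582473, minus strand), a ligand of cortical neurons linked to dendrite growth, showed the other order. From 1205 to 1362 in the controls (median 1276) it fell with BDNF to 781 and 868 at 6 h and 741 and 723 at 10 h. These were differences of -0.63 ± 0.07 and -0.80 ± 0.07 (adjusted p = 1.5e-07 and 8.5e-09). With KCl it stood at 1233 and 1143 at 6 h and reached 1071 and 1061 at 10 h (-0.26 ± 0.07, adjusted p = 0.0025). An antisense gene shares 6.61% of the Wnt7b exon bases, and the strand setting of the counting is not given in the sources used here. Wnt7a lost its call at BDNF 1 h without library A or library B (adjusted p up to 0.27), and at BDNF 6 h without library B (0.19).

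Wnt5a turned in opposite directions at 6 h, with 528 and 514 after BDNF but 846 and 853 after KCl, around controls of 537 to 712 (median 654). Both were called (-0.29 ± 0.09 and 0.42 ± 0.09). Wnt9a and Wnt5b fell late with either stimulus, by -0.55 to -1.14. Wnt2b fell with KCl at 6 h, from 55.8 to 115 in the controls (median 83.8) to 24.6 and 34.7 (-1.42 ± 0.24, adjusted p = 3.1e-05). Wnt3, known from axis formation and hippocampal growth, fell at 1 h with either stimulus (-0.79 ± 0.25 with BDNF and -0.69 ± 0.25 with KCl). Wnt5a lost its call at BDNF 6 h without library B (adjusted p = 0.15). Wnt9a lost its call at BDNF 6 h without library A (adjusted p = 0.37), and at KCl 10 h without library A (0.15). Wnt5b lost its call at BDNF 6 h without library A (adjusted p = 0.14), at BDNF 10 h without library A (0.20), and at KCl 10 h without library A, library B or control 10 h A (up to 0.31). Wnt3 lost its call at BDNF 1 h without library A (adjusted p = 0.50), and at KCl 1 h without library B (0.18).

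The scarce ligands Wnt1 and Wnt2 moved late with KCl. Wnt2 held 6.86 to 13.7 normalised read counts in the controls (median 10.6). KCl brought it to 20.6 and 18.5 at 6 h and 23.2 and 39.2 at 10 h, rises of 0.86 ± 0.32 (adjusted p = 0.025) and 1.47 ± 0.32 (adjusted p = 7.3e-04). BDNF at 1 h also gave a called rise, to 15.2 and 22.9 (0.80 ± 0.32, adjusted p = 0.062). Wnt1, the founding member of the family, held 7.21 to 21.8 in the controls (median 12.5) and 8.56 and 0 after KCl for 10 h. Its call (-2.12 ± 0.60, adjusted p = 0.0065) rests on library B, the one at 0, and the other library lay within the control range. Wnt2 lost its call at KCl 6 h without library A (adjusted p = 0.13), and at BDNF 1 h without library B or control 10 h B (up to 0.43). Wnt1 lost its call at KCl 10 h without library B (adjusted p = 0.51).

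The ligands below the minimum included a marked case, singled out after its values were seen. Wnt9b (chr11:103727364-103749821, minus strand) had 9 reads in all 6 control libraries together, for 0 to 1.64 normalised read counts. BDNF gave 3.04 and 6.11 at 1 h, 29.7 and 35.7 by 6 h and 12.4 and 9.08 by 10 h. KCl gave 3.70 and 8.55 at 1 h, then 0.983 and 0, then 2.44 and 1.09. All 6 BDNF libraries lay above every control, as did both KCl libraries of 1 h. When the minimum was dropped, limma put the 6 h rise with BDNF at 4.13 ± 0.47 (adjusted p = 7.3e-07) and the difference between BDNF and KCl at 6 h at 4.58 ± 0.57 (1.5e-06). Wnt6, also singled out afterwards, held 13.7 and 22.1 at BDNF 1 h against 1.20 to 5.87 in the controls (2.03 ± 0.61, adjusted p = 0.022 in that fit). Other calls in that fit rested on few reads, such as 6 for Wnt8a at KCl 1 h and 4 for Rspo4os at KCl 10 h.

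Of the R-spondins, Rspo2 and Rspo3 moved in contrary ways. Rspo2 (chr15:43020794-43170826, minus strand) lay at 317 to 428 in the controls (median 351). BDNF gave 272 and 314 at 1 h, 485 and 508 by 6 h and 423 and 407 by 10 h, whereas KCl gave 348 and 396, then 179.9 and 194, then 289.7 and 254. At 6 h the BDNF libraries thus lay above all controls and the KCl libraries below them. The 6 h differences were 0.46 ± 0.11 (adjusted p = 0.0022) and -0.94 ± 0.11 (1.7e-07), and the direct difference was 1.40 ± 0.13 (2.1e-08). Rspo3 (chr10:29452416-29535867, minus strand) lay at 114 to 172 in the controls (median 134). It was lower at BDNF 1 h, at 59.3 and 78.6 (-0.97 ± 0.16, adjusted p = 6.0e-05), and back at 113 and 135 at 6 h. KCl left it at 115 and 113 at 1 h and raised it to 181 and 267 by 6 h and 262 and 222 by 10 h (0.70 ± 0.16 and 0.83 ± 0.16). At all 3 times Rspo3 was lower with BDNF than with KCl, by -0.73 to -0.83. Rspo1 was scarce and fell once, with KCl at 6 h (-1.15 ± 0.50, adjusted p = 0.051). Rspo3 lost its call between stimuli at 1 h without BDNF 1 h A (adjusted p = 0.11). Rspo1 lost its call at KCl 6 h without library B (adjusted p = 0.46).

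The Frizzled receptors, 10 of 10 tested, were called in both directions. BDNF raised 2 and lowered 0 at 1 h, then 1 and 4, then 0 and 5, against 19% to 22.1% of all genes in either direction. KCl raised 5 and lowered 1, then 2 and 4, then 1 and 4, against 26.5% to 33.4% of all genes. With 10 receptors, 2 rises at BDNF 1 h (20%) and 4 falls at KCl 6 h (40%) lay near those shares. Fzd4, the receptor for norrin as well as Wnts in blood vessels, rose most at 1 h of BDNF, from 69.3 to 93.3 in the controls (median 77.9) to 167 and 161 (1.05 ± 0.15, adjusted p = 1.4e-05). KCl at 1 h gave 119 and 121 (0.60 ± 0.15), above all controls as well. Fzd3, a receptor needed for axon tracts, parted late: 578 and 597 at BDNF 6 h but 1249.6 and 1415 at KCl 6 h, against 530.0 to 851 in the controls (median 825). The direct difference was -1.18 ± 0.17 (adjusted p = 1.7e-05), and the call with BDNF alone (-0.39 ± 0.14, adjusted p = 0.035) rested on a range that overlapped the controls. Only control library A of 1 h, at 530.0, lay below the BDNF 6 h pair, and the other controls held 805 to 851. Fzd5 also was lower with BDNF than with KCl late, by -1.12 ± 0.35 at 6 h and -1.14 ± 0.35 at 10 h. Fzd1, the highest receptor, rose with KCl at 1 h to 1351 and 1332, from 904 to 1042 in the controls, and lay below them at 6 h (796 and 831) and 10 h (771 and 693). Fzd2 was lower with BDNF than with KCl at 1 h (-0.67 ± 0.15, adjusted p = 0.0015), and Fzd9 higher with BDNF than with KCl at 6 h (0.88 ± 0.14, adjusted p = 2.4e-05). Fzd3 lost its call at BDNF 6 h without library A or library B (adjusted p up to 0.19). Fzd5 lost its call between stimuli at 6 h without KCl 6 h B (adjusted p = 0.16), and between stimuli at 10 h without BDNF 10 h B (0.11).

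Of the co-receptors, Lrp5 rose late with KCl, from 248 to 337 in the controls to 406 and 361 by 6 h and 414 and 396 by 10 h (0.41 ± 0.10 and 0.49 ± 0.10). Lrp6 fell with BDNF by -0.21 to -0.24 at all 3 times, from 1192 to 1437 in the controls to 1085 to 1142 over the 6 BDNF libraries. Lrp6 lost its call at BDNF 1 h without library A or library B (adjusted p up to 0.22), at BDNF 6 h without library A (0.12), and at BDNF 10 h without library A or library B (up to 0.20).

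The ubiquitin ligases that remove Frizzled receptors responded to KCl but were not called with BDNF. Znrf3 (chr11:5276324-5444847, minus strand) lay at 269 to 413 in the controls (median 335), fell to 178 and 179 at KCl 1 h, rose to 511 and 536 at 6 h and lay at 330.0 and 371 at 10 h. The first pair was below and the second above every control, with differences of -0.89 ± 0.12 (adjusted p = 3.2e-06) and 0.66 ± 0.12 (8.9e-05). Rnf43 (chr11:87662722-87735539, plus strand), itself a target of the pathway in other tissues, lay at 9.61 to 21.8 in the controls (median 14.6), 23.5 and 31.0 at KCl 1 h and 37.4 and 44.0 at KCl 6 h. Those rises were 0.88 ± 0.29 (adjusted p = 0.014) and 1.45 ± 0.29 (1.6e-04). With BDNF, Rnf43 held 9.15 to 15.3 over all 6 libraries, and it was lower with BDNF than with KCl at all 3 times, by -0.86 to -1.87, most at 6 h (-1.87 ± 0.35, adjusted p = 1.3e-04). Rnf43 lost its call at KCl 1 h without library B (adjusted p = 0.17), between stimuli at 1 h without BDNF 1 h A, BDNF 1 h B or KCl 1 h B (up to 0.29), and between stimuli at 10 h without BDNF 10 h B or KCl 10 h B (up to 0.28).

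Among the 49 tested genes, the soluble antagonist Wif1 rose most against controls. Its control median lay below the minimum mean of 10, so its late stimulated libraries brought it into the test. The ranking thus depends on that minimum, without which Wnt9b rose by 4.13 at BDNF 6 h. Wif1 (chr10:121033960-121100650, plus strand), Wnt inhibitory factor 1, lay at 5.48 to 11.7 normalised read counts in the controls (median 7.82). BDNF gave 13.7 and 4.58 at 1 h, 60.4 and 67.7 by 6 h and 72.3 and 69.6 by 10 h. KCl gave 16.1 and 11.8 at 1 h, then 80.6 and 56.7, then 115 and 99.1. All 8 late libraries lay far above the controls. At 1 h both KCl libraries lay above the highest control, a called rise of 0.76 ± 0.31 (adjusted p = 0.047), and those of BDNF gave no call. The late rises were 2.89 ± 0.31 and 3.04 ± 0.31 with BDNF, 2.97 ± 0.31 and 3.62 ± 0.31 with KCl, with adjusted p between 4.0e-09 and 1.9e-07. The stimuli were not told apart at 6 h (-0.08 ± 0.38) or 10 h (-0.58 ± 0.38, adjusted p = 0.24). Wif1 lost its call at KCl 1 h without library A (adjusted p = 0.32).

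Sfrp1 (chr8:23411502-23449632, plus strand), the most abundant antagonist, fell late with BDNF and was not called late with KCl, and the difference between stimuli was itself called at both late times. It lay at 3555 to 4479.8 in the controls (median 4079.9), 2556 and 2846 after 6 h of BDNF and 2799 and 2815 after 10 h, all 4 below the controls (-0.58 ± 0.08 and -0.52 ± 0.08). KCl left it at 3610.2 and 4079.5 at 6 h, and BDNF differed from KCl by -0.51 ± 0.10 (adjusted p = 1.5e-04) there and by -0.42 ± 0.10 (0.0017) at 10 h. Sfrp2 was called in no contrast with controls but was lower with BDNF than with KCl at all 3 times (-0.38 to -0.41, adjusted p at most 0.037). Sfrp4 and Sfrp5, both scarce, parted under KCl. Sfrp4 rose from 8.00 to 15.6 in the controls to 26.5 and 38.2 by 6 h and 35.4 and 34.9 by 10 h (1.34 ± 0.27 and 1.47 ± 0.27), while Sfrp5 fell from 10.3 to 16.8 to 2.95 and 4.63 at 6 h (-1.57 ± 0.37, adjusted p = 8.5e-04). Dkk2, which varied widely among the controls (20.0 to 96.4), rose late with KCl to 123 and 127 at 10 h (1.31 ± 0.42, adjusted p = 0.019) and lay at 33.9 and 31.8 with BDNF. The direct difference at 10 h was -1.90 ± 0.52 (adjusted p = 0.0098). Dkk3, a secreted relative without a firm place in the pathway, rose at KCl 1 h (0.42 ± 0.09) and fell late with BDNF (-0.29 and -0.22). Sfrp2 lost its call between stimuli at 1 h without BDNF 1 h A or KCl 1 h A (adjusted p up to 0.23), between stimuli at 6 h without BDNF 6 h A or KCl 6 h A (up to 0.23), and between stimuli at 10 h without BDNF 10 h A or KCl 10 h A (up to 0.32). Dkk2 lost its call at KCl 10 h without library B (adjusted p = 0.11). Dkk3 lost its call at BDNF 6 h without library A (adjusted p = 0.19), and at BDNF 10 h without library A or library B (up to 0.23).

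**Figure D3:**
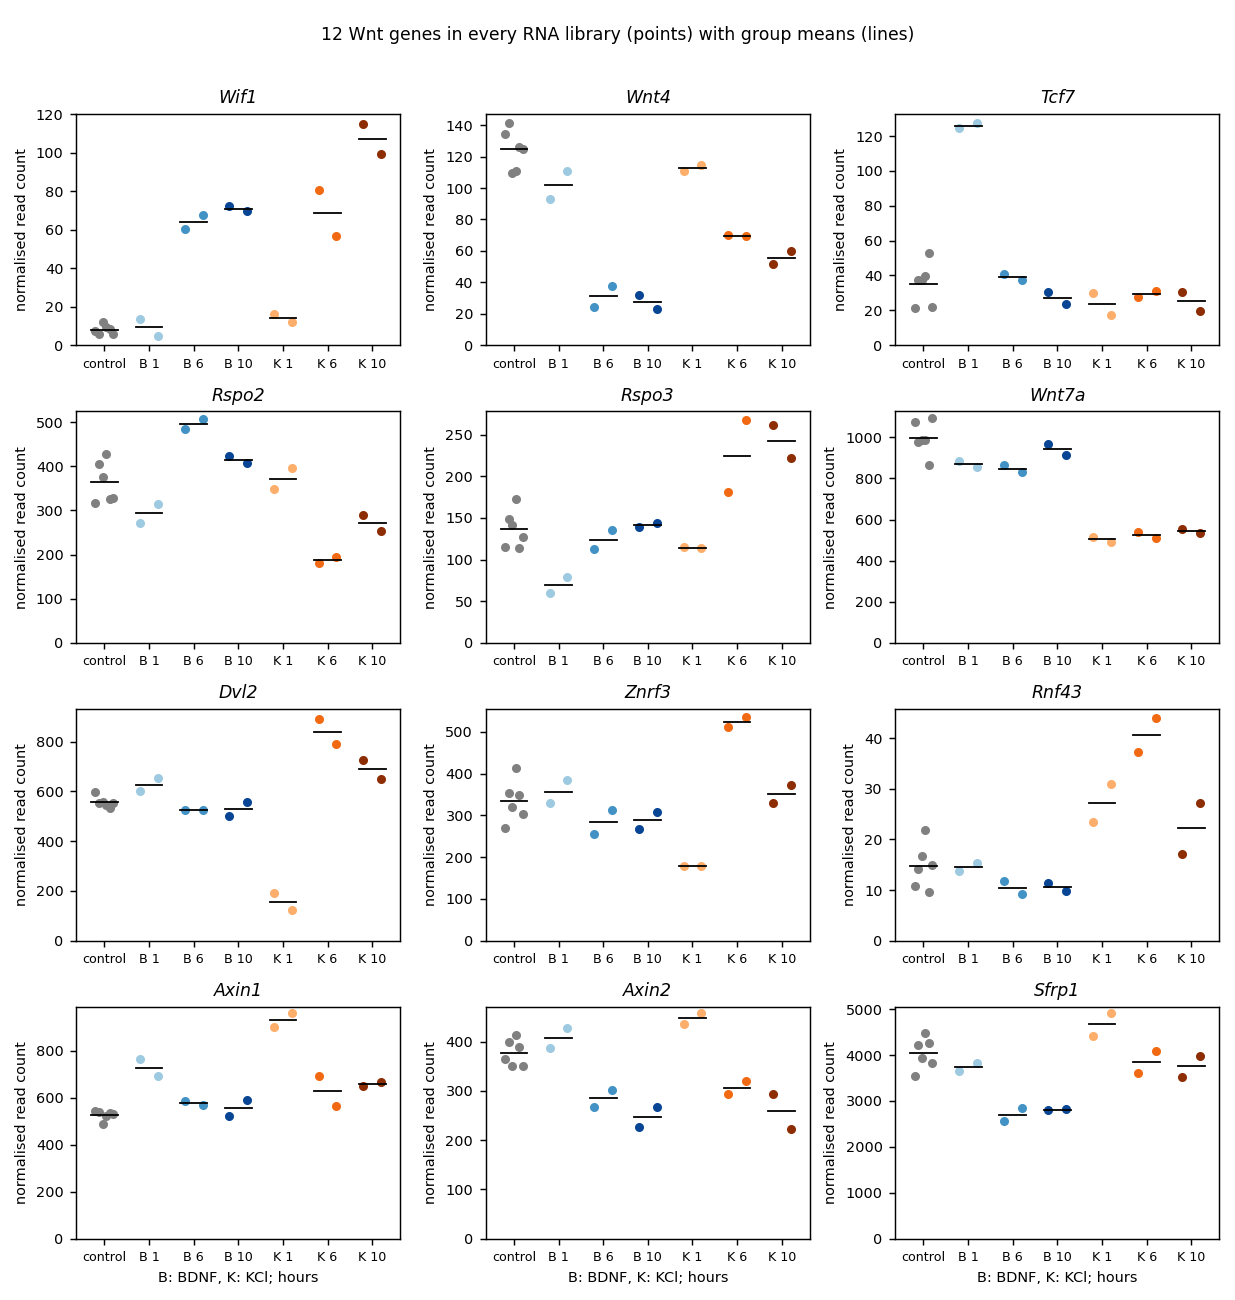
Normalised read counts of 12 genes in each RNA library: the 6 controls, then BDNF (B) and KCl (K) at 1, 6 and 10 h, 2 libraries each, with lines at the group means. Wif1 sits at 56.7 to 115 late against at most 11.7 in the controls, Tcf7 is high only in the BDNF 1 h libraries, and Dvl2 and Znrf3 are lowest in the KCl 1 h libraries.

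Inside the cell, Dishevelled proteins pass the signal on from Frizzled receptors. Dvl2 (chr11:70000595-70012301, plus strand) lay at 535 to 598 in the controls (median 554) and fell at KCl 1 h to 190.2 and 122, then stood at 892 and 789.5 at 6 h and 725 and 651 at 10 h. The change from below to above every control was a difference of 2.45 ± 0.13 between 6 h and 1 h (adjusted p = 7.9e-12). With BDNF it was called at no time, holding 502 to 654. Dvl2 shares 18.3% of its exon bases with Acadvl on the opposite strand, which held a median of 154 in the controls and 135 and 137 at KCl 1 h. Dvl1, the most abundant Dishevelled, was also called lower and then higher with KCl, at 1748 and 1506 at 1 h (-0.24 ± 0.09) and 3975 and 3035 at 6 h (0.86 ± 0.09), around 1745 to 2234 in the controls, whose range held 1 of the 1 h libraries. It rose with BDNF at 1 h to 2406 and 2357 (0.31 ± 0.09). Dvl1 lost its call at KCl 1 h without library B (adjusted p = 0.40), and at BDNF 1 h without library A (0.12).

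Axin1 (chr17:26138688-26195811, plus strand), the scaffold of the destruction complex, rose at 1 h with both stimuli. Controls lay at 486 to 541 (median 530.1), BDNF 1 h at 763 and 692, and KCl 1 h at 901 and 961. The rises were 0.47 ± 0.08 (adjusted p = 6.2e-05) and 0.83 ± 0.08 (1.4e-08), and the stimuli differed (-0.36 ± 0.10, adjusted p = 0.0055). Signalling by beta-catenin was not measured here. Axin2, a feedback scaffold often read as a sign of it, lay at 349.7 to 413 in the controls. It rose at KCl 1 h, to 436 and 459 (0.25 ± 0.10, adjusted p = 0.054), and fell late with both stimuli. Its late levels with BDNF were 268 and 302, then 227 and 268, and with KCl 293 and 319.5, then 293 and 223. None of those 8 libraries reached the control range, and the 4 falls lay between -0.30 and -0.61. Nkd2, another feedback inhibitor, fell late with both by -0.22 to -0.59. Axin2 lost its call at KCl 1 h without library A or library B (adjusted p up to 0.25), at BDNF 6 h without library A (0.11), and at KCl 6 h without library A (0.13). Nkd2 lost its call at BDNF 6 h without library A or library B (adjusted p up to 0.19), and at KCl 10 h without library A, control 1 h A, control 10 h A, control 6 h A or control 6 h B (up to 0.48).

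Beta-catenin itself fell with BDNF to 8037 and 8127 at 6 h and 7971 and 8192 at 10 h from 9339 to 10539 in the controls (-0.31 ± 0.05 and -0.31 ± 0.05), while KCl gave 10762 and 10473 at 6 h. Here BDNF differed from KCl by -0.39 ± 0.07 at 6 h and -0.41 ± 0.07 at 10 h. Ctnnb1 shares 14.6% of its exon bases with Ulk4 on the opposite strand, which held at most 40.5 in the controls and the 1 h and 6 h groups. Gsk3b turned in opposite directions at 6 h, with 4454 and 4239 after BDNF but 6203 and 5935 after KCl, around 4846 to 5300.1 in the controls (-0.23 ± 0.06 and 0.25 ± 0.06).

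Of the 4 Tcf/Lef factors, Tcf7 (chr11:52252371-52283014, minus strand), known from T cells, gave a rise called at a single time. Controls lay at 21.3 to 52.9 (median 37.2), BDNF 1 h at 125 and 127, BDNF 6 h at 40.5 and 37.5, and BDNF 10 h at 30.5 and 23.5. KCl gave 29.6 and 17.1 at 1 h and stayed between 19.6 and 31.3 later. The rise at 1 h was 1.89 ± 0.29 (adjusted p = 2.3e-05), the difference from KCl 2.43 ± 0.35 (1.1e-05) and the drop between 1 h and 6 h of BDNF -1.67 ± 0.35 (0.0012). Tcf7l1 and Tcf7l2 fell with BDNF at 10 h (-0.84 ± 0.23 and -0.71 ± 0.20), and Tcf7l2 also with KCl at 10 h (-0.80 ± 0.20). Tcf7l2 was also called lower at BDNF 6 h, at 94.6 and 92.4 against 102 to 175 in the controls. Whether that 6 h call held without single libraries is not given here. Lef1, the scarcest of them, was not called against controls. Tcf7l2 lost its call at BDNF 10 h without library B (adjusted p = 0.14).

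Markers of other cells moved at the same late times. At BDNF 6 h and 10 h and KCl 6 h and 10 h, 21.1%, 19.5%, 33.1% and 28.2% of all genes fell. Of 8 tested markers of astrocytes and radial glia, 4 fell at BDNF 6 h, 2 at BDNF 10 h, 7 at KCl 6 h and 6 at KCl 10 h. The list summed to 18719.7 to 18926, 19420.3 to 20119, 15300.2 to 17662 and 16289 to 16967 in those groups, against 19756 to 22487 in the controls. Of 4 markers of dividing cells, 3, 3, 2 and 4 fell, with sums of 3466 to 3792, 3575 to 3718, 2844 to 3188 and 2744 to 3064 against 3945 to 6629. Of 5 markers of meningeal fibroblasts, 4 fell at KCl 10 h (3094 to 3277 against 3652 to 4419). The oligodendrocyte list summed to 4316 to 4824 at KCl 1 h, where 3 of its 6 markers fell (28.2% of all genes did), and 6924 to 7347 at KCl 6 h, against 5838 to 6313. No listed marker of these 4 kinds was at 0 in a whole group. Of 5 markers of inhibitory neurons, 3 rose in each contrast with controls (21.1% to 33.4% of all genes did) and 2 fell at KCl 6 h and 10 h. That list summed to 11917 to 14336 over the late libraries against 9723 to 11539. Of 3 Cajal-Retzius markers, 1 rose at each KCl time, with sums of 2291 to 3135 late against 1504 to 2072. Of 4 microglial markers, 1 fell at BDNF 6 h and at KCl 6 h and 10 h, with sums of 73.7 to 88.0 there against 86.9 to 109.7. Choroid plexus markers summed to 187 to 319.9 at BDNF 10 h, where 1 of 2 fell, against 345 to 737. Of 3 tested endothelial and mural markers, 1 fell at BDNF 6 h and 10 h and 1 rose at KCl 1 h and 10 h, with sums of 364 to 807 late against 394 to 1397. Single calls among so few Cajal-Retzius, microglial, choroid plexus, endothelial and mural markers cannot be set apart from the shares of all genes. The same holds for 2 of 8 glial markers at BDNF 10 h, 2 of 4 dividing-cell markers at KCl 6 h and 2 of 5 inhibitory markers lower late with KCl. Rises in the glial and dividing-cell lists are not given here. The neuronal list summed to 48823 to 53575 over the late BDNF libraries and 45460.2 to 55049 over the late KCl libraries. The part of these shifts in the late falls of Axin2, Sfrp1, Nkd2 and other genes was not tested. Nor was it for Wnt7a, which was lower with KCl from 1 h on.

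A list of 60 further genes of the pathway, in the secretion of Wnts, other receptors, beta-catenin turnover, nuclear partners, planar polarity and common targets, gave 55 that could be tested. BDNF raised 11 and lowered 14 at 1 h (20% and 25.5%, against 21.3% and 19% of all genes), and raised 8 and lowered 17 at 6 h and again at 10 h (14.5% and 30.9%, against 22.1% and 21.1%, then 21.1% and 19.5%). KCl gave 22 and 6 at 1 h (40% and 10.9%, against 26.5% and 28.2%), 21 and 12 at 6 h (38.2% and 21.8%, against 33.4% and 33.1%) and 15 and 15 at 10 h (27.3% each, against 29% and 28.2%). At KCl 10 h the shares thus lay near those of all genes. Tmem88, a membrane protein that binds Dishevelled, rose at 1 h with both, from 7.68 to 14.4 in the controls to 54.7 and 47.3 with BDNF and 38.3 and 41.7 with KCl (2.11 ± 0.30 and 1.77 ± 0.30), and was called at no later time. Lgr5, an R-spondin receptor, lay at 22.8 to 37.2 in the controls and rose with KCl to 60.5 and 64.2 at 1 h, 81.6 and 85.7 by 6 h and 119.8 and 69.7 by 10 h (1.05 ± 0.21, 1.46 ± 0.21 and 1.59 ± 0.21), but fell with BDNF at 6 h (-0.59 ± 0.21). Draxin, an axon guidance protein that also inhibits Wnt signalling, fell from 3033 to 3381 to 1538 and 1706 at BDNF 6 h and 1804 and 1798 at KCl 6 h (-0.97 ± 0.06 and -0.82 ± 0.06). Pygo1, a partner of beta-catenin in the nucleus, fell at every time, most at KCl 6 h (-1.01 ± 0.06). Ccnd1 was called higher at BDNF 6 h, at 568 and 609 against 361 to 589 in the controls. Myc held 881 and 773 at KCl 6 h against 430 to 576. It also lay above every control at BDNF 1 h (704 and 705), BDNF 6 h (669 and 578) and KCl 10 h (747 and 720). The scarce Notum, below the minimum and not tested, held 1.97 and 3.47 at KCl 6 h against 8.21 to 15.4 in the controls. It was also low at KCl 10 h (3.67 and 3.27), and held 3.60 to 8.23 over the late BDNF libraries. Prickle1, a planar polarity protein, fell at BDNF 1 h (-0.59 ± 0.09) and rose at 6 h with both (0.54 ± 0.09 and 1.01 ± 0.09). Kremen2, a Dkk receptor, rose at KCl 1 h (1.73 ± 0.35) and fell at 10 h (-1.05 ± 0.35), while Sostdc1, a secreted antagonist, rose at all 3 KCl times by 0.82 to 1.16. Without library A or library B of BDNF 1 h, 16 of these genes were called at 1 h. Without library A of BDNF 6 h it was 16 at 6 h, and without library A or B of BDNF 10 h 13 and 14 at 10 h. Lgr5 lost its call at BDNF 6 h without library B (adjusted p = 0.29). Kremen2 lost its call at KCl 10 h without library A (adjusted p = 0.29). Sostdc1 lost its call at KCl 1 h without library B (adjusted p = 0.41), and at KCl 6 h without library B (0.10). Also among the largest called changes were Tle3 (higher) and Shisa2 (lower) at BDNF 1 h. At BDNF 10 h they were Tle4 and Btrc (higher) and Lgr6 (lower). With KCl they were Bcl9 and Frat1 (lower) at 1 h and Celsr1 (lower) at 6 h. Whether these calls and that of Ccnd1 held without single libraries is not given here.

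Chromatin around the 61 genes was read from the ATAC-seq peaks, of which 56383 could be tested (edgeR, Benjamini-Hochberg over all of them, called at an adjusted p below 0.1). Promoter peaks, meaning those that overlap 1000 bp before to 100 bp after an annotated start, numbered 54 and covered 45 genes. With BDNF, 3 gained and 2 lost accessibility at 1 h, against 12.5% and 4.78% of all peaks. At 6 h 0 and 0 did, against 8.88% and 1.75%, and at 10 h 0 and 1, against 7.45% and 1.9%. At BDNF 6 h, 2 of the promoter peaks had an unadjusted p below 0.05, DESeq2 size factors gave 2 calls and TMM scaling 1. With KCl, 5 and 2 did at 1 h (5.3% and 3.05% of all peaks), 2 and 0 at 6 h (5.45% and 2.06%) and 1 and 0 at 10 h (5.91% and 1.96%).

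These few promoter calls moved with single libraries. The count at BDNF 1 h was 2 without library A, 1 without library B and 3 without control library A of 10 h or B of 6 h. At BDNF 6 h it was 1 without control library B of 10 h, and at BDNF 10 h 0 without library A and 2 without control library A of 1 h. At KCl 1 h it was 2 without either library. At KCl 6 h it was 0 without library B and 1 without control library A of 1 h or of 10 h, and at KCl 10 h 0 without library A and 2 without control library A of 1 h or of 6 h.

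The Sfrp4 promoter peak (chr13:19623003-19623720, mm10, overlapping an exon) gained with both stimuli. It held 32.9 to 54.7 scaled reads in the controls (median 38.8), 66.1 and 79.7 at BDNF 1 h, 72.1 and 61.1 at KCl 1 h, 66.8 and 93.1 at KCl 6 h and 82.9 and 75.7 at KCl 10 h. The gain was 0.85 ± 0.23 at BDNF 1 h and 0.71 to 0.97 over the 3 KCl times, while BDNF at 6 and 10 h gave no call. The Dvl2 promoter peak (chr11:70000433-70000869) held 57.7 to 87.8 in the controls and 52.0 and 32.0 at KCl 1 h (-0.67 ± 0.24, adjusted p = 0.077), the time at which Dvl2 RNA was lowest, and lay at 79.2 and 74.8 at 6 h. The Sfrp2 promoter peak lost accessibility with BDNF at 1 h and 10 h (-0.49 ± 0.19 and -0.67 ± 0.22), from 82.5 to 104 in the controls to 65.5 and 69.5, then 50.5 and 67.2. The Sfrp4 peak lost its call at BDNF 1 h without library B (adjusted p = 0.17), at KCl 1 h without library A or library B (up to 0.34), at KCl 6 h without library B (0.22), and at KCl 10 h without library A (0.11). The Dvl2 peak lost its call at KCl 1 h without library B or control 10 h A (adjusted p up to 0.72). The Sfrp2 peak lost its call at BDNF 1 h without library A, library B, control 1 h A, control 10 h A or control 6 h B (adjusted p up to 0.36), and at BDNF 10 h without library A (0.44).

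Away from promoters, 103 peaks had one of these genes as the nearest coding start within 50 kb, and 100 could be tested. BDNF opened 15 and closed 0 at 1 h, opened 8 and closed 0 by 6 h and opened 7 and closed 2 by 10 h. KCl opened 5 and closed 1, then 5 and 3, then 6 and 4. The shares of the 100 that opened lay near those of all peaks, which BDNF opened in 12.5%, 8.88% and 7.45% and closed in 4.78%, 1.75% and 1.9%, and KCl opened in 5.3%, 5.45% and 5.91% and closed in 3.05%, 2.06% and 1.96%. The peaks that follow are therefore described one by one. The count at KCl 1 h was 1 without library A. At KCl 6 h it was 2 and 3 without library A or B, and at KCl 10 h 2 and 6. The letters of the ATAC-seq libraries follow only the order of the columns and do not tie them to RNA libraries.

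Sequences are shown for 6 gained peaks: the first 4 had the largest rises at BDNF 1 h, and the last pair rose in 5 and 6 of the 6 contrasts. None overlaps an annotated exon. Each is read from the plus strand of GRCm38 (mm10), whole for the first 4 and as the central 300 bases for the last pair. Capitals mark TGANTCA, the core recognised by AP-1 (Fos and Jun) factors, which reads as the same pattern on both strands. The regions are chr16:38196383-38196648 (Gsk3b), chr3:132064042-132064317 (Dkk2), chr2:151848478-151848691 (Rspo4), chr15:43179631-43179826 (Rspo2), chr10:29539510-29539809 (Rspo3) and chr3:131139333-131139632 (Lef1).
Gsk3b intron: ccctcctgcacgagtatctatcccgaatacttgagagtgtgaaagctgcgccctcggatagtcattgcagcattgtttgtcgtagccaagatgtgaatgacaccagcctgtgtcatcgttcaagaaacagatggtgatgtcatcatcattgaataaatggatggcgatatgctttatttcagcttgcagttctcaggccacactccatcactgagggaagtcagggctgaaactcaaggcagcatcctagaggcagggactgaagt
Dkk2 upstream: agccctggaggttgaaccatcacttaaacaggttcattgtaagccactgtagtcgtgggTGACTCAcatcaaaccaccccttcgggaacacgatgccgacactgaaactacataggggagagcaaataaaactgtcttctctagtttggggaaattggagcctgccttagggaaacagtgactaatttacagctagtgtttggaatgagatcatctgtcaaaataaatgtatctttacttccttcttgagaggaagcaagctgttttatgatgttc
Rspo4 intron: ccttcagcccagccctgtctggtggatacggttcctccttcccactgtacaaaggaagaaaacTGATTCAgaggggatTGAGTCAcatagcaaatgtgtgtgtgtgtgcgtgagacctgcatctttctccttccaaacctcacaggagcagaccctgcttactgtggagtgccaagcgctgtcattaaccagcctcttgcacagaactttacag
Rspo2 upstream: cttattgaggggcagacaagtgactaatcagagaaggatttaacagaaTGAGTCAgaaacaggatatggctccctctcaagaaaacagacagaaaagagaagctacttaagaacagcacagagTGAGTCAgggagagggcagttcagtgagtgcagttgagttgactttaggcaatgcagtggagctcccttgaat
Rspo3 upstream: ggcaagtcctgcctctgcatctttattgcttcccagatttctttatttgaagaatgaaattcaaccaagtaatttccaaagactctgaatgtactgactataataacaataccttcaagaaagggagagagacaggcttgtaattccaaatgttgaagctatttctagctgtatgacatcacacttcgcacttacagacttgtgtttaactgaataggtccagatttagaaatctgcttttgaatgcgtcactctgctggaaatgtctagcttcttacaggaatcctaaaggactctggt
Lef1 intron: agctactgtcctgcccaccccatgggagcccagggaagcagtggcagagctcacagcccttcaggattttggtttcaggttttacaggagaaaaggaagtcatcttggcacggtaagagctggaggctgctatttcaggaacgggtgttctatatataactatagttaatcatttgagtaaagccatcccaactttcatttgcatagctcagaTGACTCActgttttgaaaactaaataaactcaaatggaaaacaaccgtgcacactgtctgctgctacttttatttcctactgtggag
The letters TGANTCA stood once in the Dkk2 and Lef1 regions and at 2 places in the Rspo4 and Rspo2 regions, and not in the Gsk3b and Rspo3 regions. In windows of 200 bases around the peak centre, 9 of the 15 peaks opened at BDNF 1 h held them, 17 of all 103 non-promoter peaks (16.5%), and 1 of the 54 promoter peaks. Over all 58177 peaks the share was 13.1%, and over all 7040 peaks opened at BDNF 1 h it was 59.7%, beside 60.0% for the 15 near the Wnt genes. The cyclic AMP response element TGACGTCA stood in 1 of the 15 windows and in 0.708% of all peaks. CTTTGA, the core of Tcf/Lef sites (read on both strands), stood in 0 of the 15 and in 11.8% of all peaks. It stood in 20 of the 103 non-promoter peaks (19.4%) and in 13.0% of all peaks opened at BDNF 1 h. Among 15 peaks, a count of 0 cannot be set apart from these shares. These are matches of letters, and no factor was measured.

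The Gsk3b peak lies in an intron, 108 kb into the gene and 11.5 kb before an inner start. It held 0.940 to 14.3 scaled reads in the controls (median 2.11), 44.8 and 34.9 at BDNF 1 h, 17.0 and 15.9 at BDNF 6 h, 4.44 and 18.2 at BDNF 10 h, 13.8 and 11.7 at KCl 1 h and 13.1 and 12.8 at KCl 6 h. Both libraries lay above all controls at BDNF 1 h and BDNF 6 h, and 1 did at BDNF 10 h. The rise at BDNF 1 h was 3.25 ± 0.47 (adjusted p = 8.4e-09), and those at KCl 1 h (1.60) and 6 h (1.64) were called too, although those 4 libraries lay within the control range. Gsk3b RNA at BDNF 1 h differed by 0.03 ± 0.06 from the controls. The Dkk2 peak, 21.1 kb upstream, stayed open with BDNF, from 5.84 to 9.67 in the controls to 33.9 and 63.0 at 1 h, then 69.6 and 39.9, then 48.3 and 35.9 (2.68 ± 0.35, 2.82 ± 0.35 and 2.45 ± 0.39). KCl gave 15.4 and 8.31 at 1 h and reached a call at 10 h (26.8 and 16.4, adjusted p = 0.013), while Dkk2 RNA rose late with KCl and not with BDNF. The Gsk3b peak lost its call at KCl 1 h without library A, library B, control 1 h B, control 10 h B or control 6 h B (adjusted p up to 0.29), and at KCl 6 h without library A, library B, control 1 h B, control 10 h A, control 10 h B or control 6 h B (up to 0.45). The Dkk2 peak lost its call at KCl 10 h without library A (adjusted p = 0.38).

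The R-spondin genes Rspo2, Rspo3 and Rspo4 each had such a peak. The Rspo2 peak, 8.90 kb upstream, went from 1.67 to 4.92 scaled reads in the controls to 9.22 and 21.5, 18.8 and 17.1, and 19.2 and 19.5 at 1, 6 and 10 h of BDNF. These were gains of 2.04 ± 0.52, 2.23 ± 0.51 and 2.35 ± 0.55, and no KCl time was called, although the late KCl libraries (5.35 to 14.3) also lay above the controls. Rspo2 RNA over the same BDNF times differed by -0.30, 0.46 and 0.20. The Rspo4 peak, in an intron, held 1.11 to 13.7 in the controls, 12.7 to 32.9 over the 6 BDNF libraries and 3.45 to 19.7 over the KCl libraries. It was called with BDNF alone (2.06, 1.61 and 1.76), while Rspo4 had 6 reads in all RNA libraries. The Rspo3 peak, 3.79 kb upstream, held 12.3 to 28.2 in the controls, 38.8 and 54.8 at BDNF 1 h, 28.3 and 21.4 at BDNF 6 h and 37.3 to 59.1 over the 6 KCl libraries. Its gain was called at 5 of the 6 contrasts, at 1.21 to 1.60, where Rspo3 RNA ranged from -0.97 (BDNF 1 h) to 0.83 (KCl 10 h). The Rspo2 peak lost its call at BDNF 1 h without library B (adjusted p = 0.65). Rspo2 lost its call at BDNF 1 h without library A (adjusted p = 0.39). The Rspo4 peak lost its call at BDNF 6 h without library A (adjusted p = 0.78), and at BDNF 10 h without library B (0.18). The Rspo3 peak lost its call at BDNF 10 h without library A (adjusted p = 0.11), at KCl 1 h without library A (0.14), and at KCl 10 h without library B (0.19).

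The Lef1 peak, in an intron, was open above all controls in each of the 12 stimulated libraries, with 12.6 to 32.9 in the controls (median 23.3), 43.2 to 64.4 with BDNF and 47.6 to 96.3 with KCl. All 6 gains were called (1.05 to 1.91), yet Lef1 RNA was not called against controls. The peak 42.5 kb upstream of Wnt2b (chr3:105004000-105004748) rose with BDNF from 38.0 to 57.4 in the controls to 141 and 126 at 1 h (1.44 ± 0.19, adjusted p = 7.9e-10), and was called at all 3 BDNF times (1.07 at 6 h and 1.08 at 10 h) and no KCl time, although the late KCl libraries (59.4 to 78.0) lay above the controls too. The 10 called falls ranged from -0.44 to -1.77. The largest in each contrast that had one were a peak 29.5 kb upstream of Wnt5a at BDNF 10 h (chr14:28475066-28475448, -0.94 ± 0.35), 1 near Fzd9 at KCl 1 h (chr5:135258309-135258871, -0.79 ± 0.28), 1 downstream of Rspo4 at KCl 6 h (chr2:151876213-151876415, -1.77 ± 0.54) and 1 in a Tcf7l2 intron at KCl 10 h (chr19:55896670-55896889, -1.38 ± 0.47). The Lef1 peak lost its call at BDNF 6 h without library B (adjusted p = 0.16), and at KCl 6 h without library A (0.27). The Wnt2b peak lost its call at BDNF 10 h without library B (adjusted p = 0.35). The Wnt5a peak lost its call at BDNF 10 h without library B, control 1 h B or control 10 h B (adjusted p up to 0.60). The Fzd9 peak lost its call at KCl 1 h without library A, control 1 h A or control 6 h B (adjusted p up to 0.67). The Rspo4 peak lost its call at KCl 6 h without library A or library B (adjusted p up to 0.24). The Tcf7l2 peak lost its call at KCl 10 h without library A, library B or control 10 h B (adjusted p up to 0.40).

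**Figure D4:**
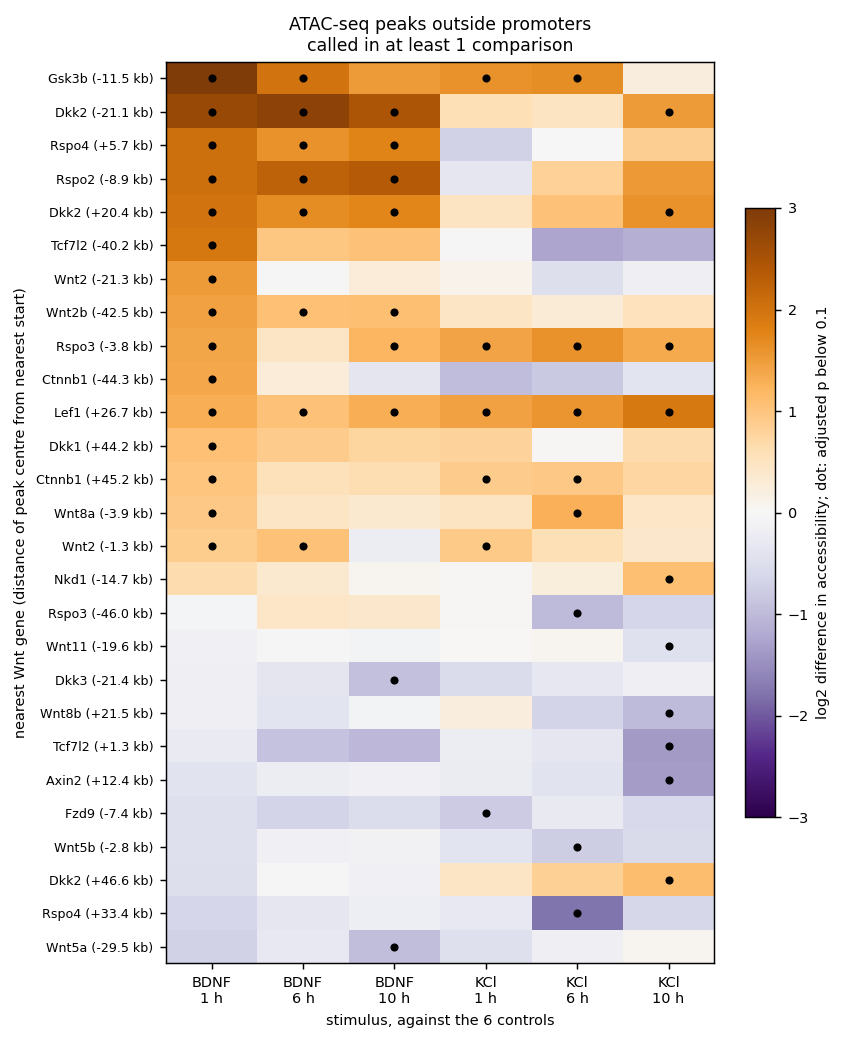
Log2 difference in accessibility of each non-promoter peak near a Wnt gene that was called at least once (rows, named by the nearest gene with the distance of the peak centre from the nearest start in kb) in the 6 contrasts with controls; a dot marks an adjusted p below 0.1. The BDNF 1 h column holds 15 gains and 0 losses, and the peak in the Lef1 intron is the only row with dots in all 6 columns.

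**Figure D5:**
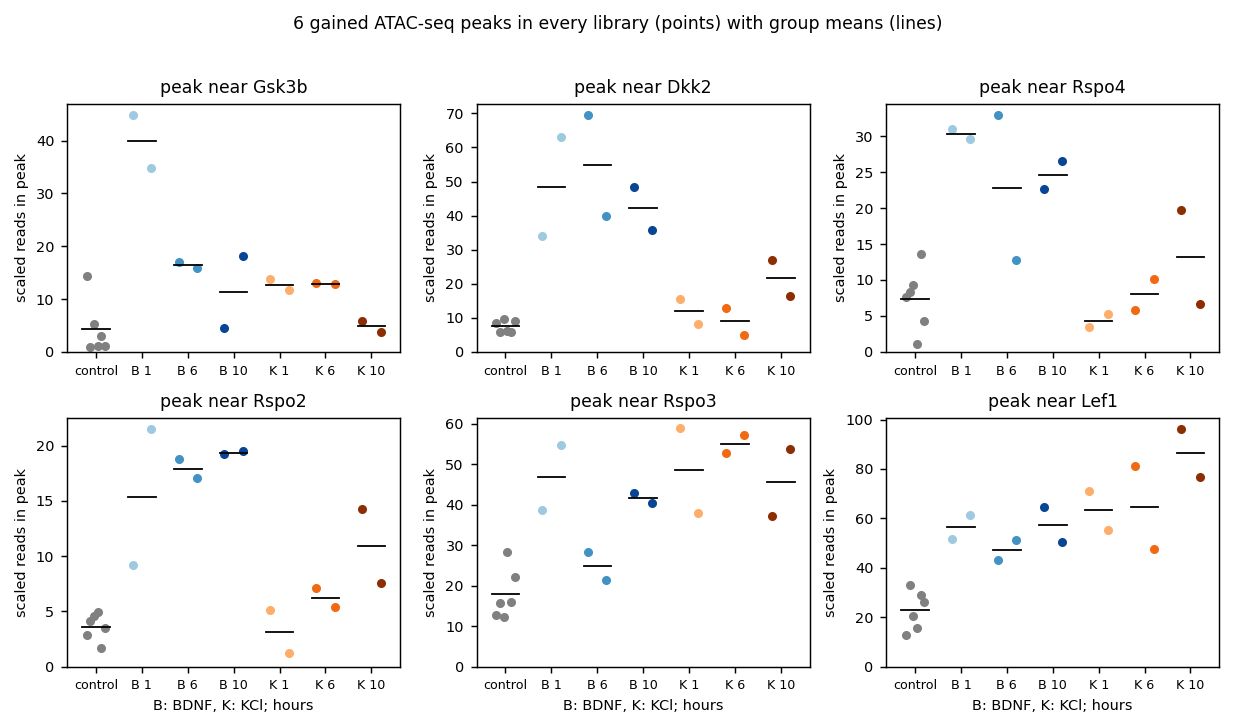
Scaled reads (counts divided by the LOESS offset) in the 6 peaks whose sequences are shown, in each ATAC-seq library with lines at the group means; B is BDNF and K is KCl, with hours. The Rspo2 and Dkk2 peaks are high at all BDNF times, the Gsk3b peak highest at BDNF 1 h (44.8 and 34.9), and the Lef1 peak lies above all controls in every stimulated library.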

How the data were processed

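RNA-seq and ATAC-seq libraries were grouped by the sample labels. The authors mapped RNA reads to mm10 with TopHat2 and GENCODE M16, and deposited per gene a signal that is never negative, namely read counts divided by a DESeq2 size factor for each library. The counting program and its strand setting are not given in the sources used here. All values came out as whole reads within 0.01 (100% in each library), which gave the depths. The authors aligned ATAC-seq reads with Bowtie2 after Trimmomatic, called peaks with MACS2 and deposited DiffBind counts for 58177 peaks. Columns of the authors' own comparisons (fold changes and p-values) were not used, and 0 columns of per-sample values were left unmapped.

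RNA was tested with limma 3.58.1 (trend and robust options, R 4.3.3) on log2(value + 1), for 16209 genes with a mean of at least 10, in a model of 7 levels with the 6 controls as 1 level. The log2 scale with a pseudocount understates changes of scarce genes. ATAC-seq counts were tested with edgeR 4.0.16 (quasi-likelihood) with LOESS offsets (span 0.3) in the same model, and scaled reads are counts over those offsets. Tests were two-sided with Benjamini-Hochberg adjustment over all features. Both were tested on simulated data. With 2 libraries in a group, the spread was borrowed from all libraries. Counting error adds to that spread for scarce genes and peaks. Alternatives were DESeq2 1.42.0 and edgeR on the recovered reads, TMM scaling, pseudocounts of 0.5 and 5, no minimum, controls of the same time, an adjusted p below 0.01, a 2000 bp promoter window, a 20 kb distance and leaving out each library.

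The genes, lists, rules and tests were chosen with earlier results of these data known. Named were the 4 members with the largest called rises and falls in each contrast with controls, the 3 each way in each direct contrast, the highest member of each role, the 2 largest each way among further pathway genes and the largest called peak changes. This gave 32 members and 16 further genes. Other genes with values were chosen after these were seen. Peaks are given in mm10 coordinates counted from 1, and exon lengths, starts and sequences come from GRCm38 with GENCODE M21. For 13 members an exon overlaps another annotated gene. Python 3.11.15, pandas 2.3.3 and matplotlib 3.10.9 were used.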

Additional observations from a re-analysis of the deposited data

Results flagged for a closer look

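Among the 6 control libraries, 3 of the 49 tested genes had a library set apart by Dixon's criterion for 6 values, where chance gives about 1 in 20. Dvl2 had its highest control, library A of 1 h, at 598 normalised read counts. Axin1 had its lowest, library A of 6 h, at 486, and Fzd3 its lowest, library A of 1 h, at 530.0.

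Several genes were called against controls in opposite directions at 1 h and 6 h of a stimulus, and the difference between the times was itself called with limma. Rspo2 differed by 0.76 on the log2 scale with BDNF, being lower at 1 h and higher at 6 h. With KCl, the genes that went from lower to higher were Dvl2 (2.45), Znrf3 (1.55), Dvl1 (1.10) and Wnt5a (0.79). Those that went from higher to lower with KCl were Fzd1 (-0.72), Axin2 (-0.55) and Fzd8 (-0.54). With 1 library left out, 4 of these genes lost a call against controls. Fzd8 at KCl 1 h lost its call without KCl 1 h library B, or without control library A of 1 h, 6 h or 10 h (adjusted p up to 0.487), and at KCl 6 h without library B (0.119). Axin2 lost its call at KCl 1 h without either library (adjusted p up to 0.249) and at KCl 6 h without library A (0.134), Dvl1 at KCl 1 h without library B (0.404), and Rspo2 at BDNF 1 h without library A (0.393).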

How the results depend on the processing

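An adjusted p below 0.01 lowered the number of called members to 5, 9 and 11 with BDNF at 1, 6 and 10 h, to 10 with KCl at 1 h, to 9 and 14 between the stimuli at 1 h and 10 h, and to 12 and 17 between 6 h and 1 h of BDNF and of KCl. It left 14, 11 and 9 further pathway genes with BDNF and 17 with KCl at 10 h. It left 1 and 0 promoter peaks at BDNF 1 h and 10 h, 2 and 0 at KCl 1 h and 6 h, 5 distal peaks at BDNF 6 h and 2, 2 and 3 at the KCl times.
Against controls of the same time alone, 7 members were called at BDNF 1 h and 14 further genes at BDNF 10 h. Promoter peaks then numbered 3 and 0 at BDNF 1 h and 10 h and 2 and 1 at KCl 1 h and 6 h, and distal peaks 5 at BDNF 10 h and 3, 4 and 4 with KCl.
Promoter peaks also moved with the test and the scaling. With limma on log2 counts there were 3 at BDNF 1 h and 4 at KCl 1 h. DESeq2 size factors gave 2 and 4 at BDNF 6 h and 10 h and 5 and 8 at KCl 6 h and 10 h, and TMM scaling gave 1 and 3 with BDNF and 6 at KCl 10 h, where it also gave 16 distal peaks. A 2000 bp window gave 1 promoter peak at BDNF 6 h and 2 at KCl 10 h. Within 20 kb there were 6, 4 and 3 distal peaks with BDNF and 4 and 5 at KCl 6 h and 10 h, since fewer peaks were counted.
With 1 library left out at a time, the number of called members ranged from 6 to 14, 12 to 29 and 12 to 27 with BDNF, from 16 to 24, 29 to 34 and 23 to 31 with KCl, from 10 to 16, 20 to 27 and 18 to 20 between stimuli, and from 14 to 16 and 22 to 29 between 6 h and 1 h of BDNF and of KCl. Between control times it stayed at 0. Further pathway genes ranged from 16 to 26, 16 to 24 and 13 to 24 with BDNF and from 23 to 29, 29 to 34 and 21 to 31 with KCl. Promoter peaks ranged from 1 to 7, 0 to 1 and 0 to 2 with BDNF and from 2 to 7, 0 to 2 and 0 to 2 with KCl, and distal peaks from 10 to 17, 6 to 9 and 8 to 10, and from 1 to 6, 2 to 8 and 2 to 11. A library left alone in its group was assumed to vary like the other groups. The cause of these shifts was not tested.
The RNA letters are shared by the groups, and 13 of 36 correlations between same-lettered libraries were above 0.1 (lowest -0.31, median 0.065, highest 0.42), so they were not taken to pair the libraries. With the letter as a replicate block, 13, 26 and 25 members were called with BDNF and 24, 36 and 32 with KCl, and no count of members or further genes moved by over 1.5 times. No paired analysis was possible for ATAC-seq because its columns carry no replicate numbers.
For single genes and peaks, 4563 values over the alternatives kept direction and side of the threshold, 181 lost and 85 gained a call, and 0 reversed. Between control times, 0 genes were called by limma, edgeR or DESeq2, where 164 and 181 had an unadjusted p below 0.05 with limma. At these depths 12 members lay below the minimum mean and 3 of 103 distal peaks could not be tested.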
